A study of Homo sapiens with 16 samples.

Results

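The genes described here are 10 immediate early genes that encode no AP-1 subunit: EGR1, EGR2, EGR3, NR4A1, KLF6, BHLHE40, IER2, IER3, DUSP1 and ZFP36. They were taken by symbol from the annotation of the Affymetrix HG-U133A array, and 9 of the 10 were named there by 16 probe sets, among 11963 genes tested. EGR2 was not analysed here. Expression was measured in 8 established human cell lines, each arrayed once untreated and once treated, which gave 16 arrays in 4 groups of n = 4. Karpas 299, SU-DHL-1, JB6 and FE-PD are lines of anaplastic large cell lymphoma (ALCL), a CD30-positive lymphoma of T-cell descent with little T-cell receptor machinery. Jurkat, CCRF-CEM, Molt-4 and Molt-3 are T-cell leukaemia or lymphoma lines and are called the T-cell lines here. Treated cells received 1 µM 5-aza-2'-deoxycytidine, an inhibitor of DNA methylation, for 6 days, and 625 nM trichostatin A, an inhibitor of histone deacetylases, during the last 24 hours. The series title asks whether such treatment gives T cells an ALCL-like phenotype. As background, Molt-3 and Molt-4 were established from 1 patient, and FE-PD is known as an ALCL line without an ALK fusion. Each line has 1 array per condition, so every error and p-value given below measures the spread between lines.

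Immediate early genes are transcribed within minutes of a growth factor, antigen receptor or stress signal, from factors already present in the cell. Extracellular signal-regulated kinase (ERK) phosphorylates ETS-family partners of the serum response factor (SRF), which binds CArG boxes, and CREB binds cyclic AMP response elements. The products then act back on the signal or pass it on. EGR1 and EGR3 are zinc finger transcription factors, NR4A1 (Nur77) is an orphan nuclear receptor induced by the T-cell receptor, KLF6 is a Krüppel-like factor, and BHLHE40 is a basic helix-loop-helix repressor that binds E-boxes. DUSP1 is a phosphatase that inactivates p38, JNK and ERK. ZFP36 (tristetraprolin) binds AU-rich elements and speeds the decay of cytokine mRNAs. IER2 is a nuclear protein, and IER3 (IEX-1) is a stress and NF-κB response protein that acts on cell survival.

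The upstream sequences of 3 of these genes are shown because EGR1 is a member that rose in both cell types, and DUSP1 and ZFP36 are the pair with the larger changes in ALCL lines. Each is the 250 bases before the annotated start, 5′ to 3′ on the gene's own strand, from RefSeq on build GRCh38.p14. EGR1 lies at chr5:138465229-138465478 on the plus strand, DUSP1 at chr5:172771196-172771445 on the minus strand and ZFP36 at chr19:39406597-39406846 on the plus strand. Capitals mark CArG boxes and the cyclic AMP core site TGACG, read on either strand.
EGR1: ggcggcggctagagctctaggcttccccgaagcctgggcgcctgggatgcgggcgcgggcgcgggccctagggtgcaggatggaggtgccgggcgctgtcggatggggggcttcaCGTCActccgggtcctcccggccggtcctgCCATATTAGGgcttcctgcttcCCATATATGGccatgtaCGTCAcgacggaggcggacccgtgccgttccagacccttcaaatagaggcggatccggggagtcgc
DUSP1: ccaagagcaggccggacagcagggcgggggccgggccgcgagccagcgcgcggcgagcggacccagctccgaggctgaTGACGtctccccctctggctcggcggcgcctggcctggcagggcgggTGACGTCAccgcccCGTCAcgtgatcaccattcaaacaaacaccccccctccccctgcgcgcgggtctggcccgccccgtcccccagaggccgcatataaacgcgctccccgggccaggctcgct
ZFP36: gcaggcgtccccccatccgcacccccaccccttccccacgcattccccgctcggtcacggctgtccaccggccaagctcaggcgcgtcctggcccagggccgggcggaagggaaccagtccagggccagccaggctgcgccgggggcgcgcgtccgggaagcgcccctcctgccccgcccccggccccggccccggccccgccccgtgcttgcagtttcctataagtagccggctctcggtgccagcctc
The EGR1 window held 2 CArG boxes, at -105 to -96 and -83 to -74 from the start, and 2 core sites. Of 35116 promoter windows of this length, 1.16% held a CArG box and 11 held 2 or more. The DUSP1 window held 4 core sites, 2 of which overlap in a palindrome, against 21.2% of windows with any. It also held an E-box (CACGTG), which 6.34% of windows hold and which overlaps the last core site by 2 bases, and a TATAAA box (10.7%) at -30 to -25. The ZFP36 window held none of the 6 motifs searched. The other motifs were the ETS core CCGGAA, in 14.5% of windows, and the EGR site GCGNGGGCG, in 8.41%. The EGR1 window also held 1 EGR site, at -198 to -190. IER2 had 1 core site and 1 ETS core, NR4A1 1 ETS core in 1 of 2 windows, KLF6 1 EGR site and 1 E-box, and BHLHE40 1 E-box. EGR3 and IER3 had no entry in the promoter table. These matches describe the letters of the window and were not tested as binding sites.

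Values are log2 expression levels from RMA, so a difference of 1 is 2-fold, and levels are compared within a probe set only. Treated arrays differed from untreated ones over the whole array. The SD over probe sets was 1.83 to 1.94 untreated and 1.60 to 1.81 treated, lower in 8 of 8 lines. The 3' minus 5' signal of ACTB, which follows RNA or target length, was higher on 7 of 8 treated arrays. A 28S ribosomal RNA control probe set stood at 12.05 to 14.26 on the treated arrays of Molt-3, Molt-4, FE-PD, SU-DHL-1 and JB6. It stood at 6.81 to 8.15 on the treated arrays of Jurkat, CCRF-CEM and Karpas 299, and at 6.60 to 7.62 on all untreated arrays. The part of these array differences in the results was not tested, beyond the values within lines with and without the 28S rise that are given below. Among T-cell lines only Molt-3 and Molt-4 had the rise, and both come from 1 patient. The rise and the patient of origin therefore cannot be told apart there, and the tests count these as separate lines. The 8 T-cell markers averaged 9.61 to 10.23 on untreated and 7.83 to 8.40 on treated T-cell arrays, and 6 of 8 fell under treatment. On ALCL arrays they averaged 6.99 to 7.64. The 7 ALCL markers averaged 10.86 to 12.06 on untreated and 9.80 to 11.68 on treated ALCL arrays, where 3 fell and 1 rose. On T-cell arrays they averaged 6.26 to 6.79 untreated and 6.70 to 7.27 treated, and 3 of 7 rose under treatment (median change 0.58). The part of these marker changes in the members' results was not tested. B-cell markers (5 of 6 measured) averaged 6.47 to 7.42 and myeloid markers (5 of 6) 5.39 to 6.55 over all arrays. In bulk RNA, fewer cells of a type and less RNA per cell cannot be told apart.

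Under treatment IER3, EGR1 and ZFP36 rose in both cell types, IER2 and NR4A1 passed the test in the T-cell lines and DUSP1 in the ALCL lines. A gene is called here at an adjusted p below 0.05, from limma with Benjamini-Hochberg adjustment over all genes. In the T-cell lines 5 of 9 members rose and 0 fell (6 at an unadjusted p under 0.05), against 21.7% of all genes called higher and 20.2% called lower. The median change of the 9 members was 0.59, beside 0.14 over all genes. In the ALCL lines 4 of 9 rose and 0 fell, against backgrounds of 8.04% and 13.4%, with medians of 0.65 and 0.09. EGR1 (on 201693_s_at), IER3 and ZFP36 were higher on the treated array in all 8 lines, a pattern that 15.2% of all genes showed. Treated groups lay above untreated ones without overlap for 6 of 9 members in T-cell lines, against 25.0% of all genes. The 6 include EGR3, which was not called. In ALCL lines this held for 4 members, against 7.69% of all genes. Per line, 6 to 9 of the 9 members were higher after treatment, against 43.5% to 60.2% of all genes. IER3 had the largest change of the 9 in 6 lines and DUSP1 in the other 2, FE-PD and SU-DHL-1.

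**Figure D1:**
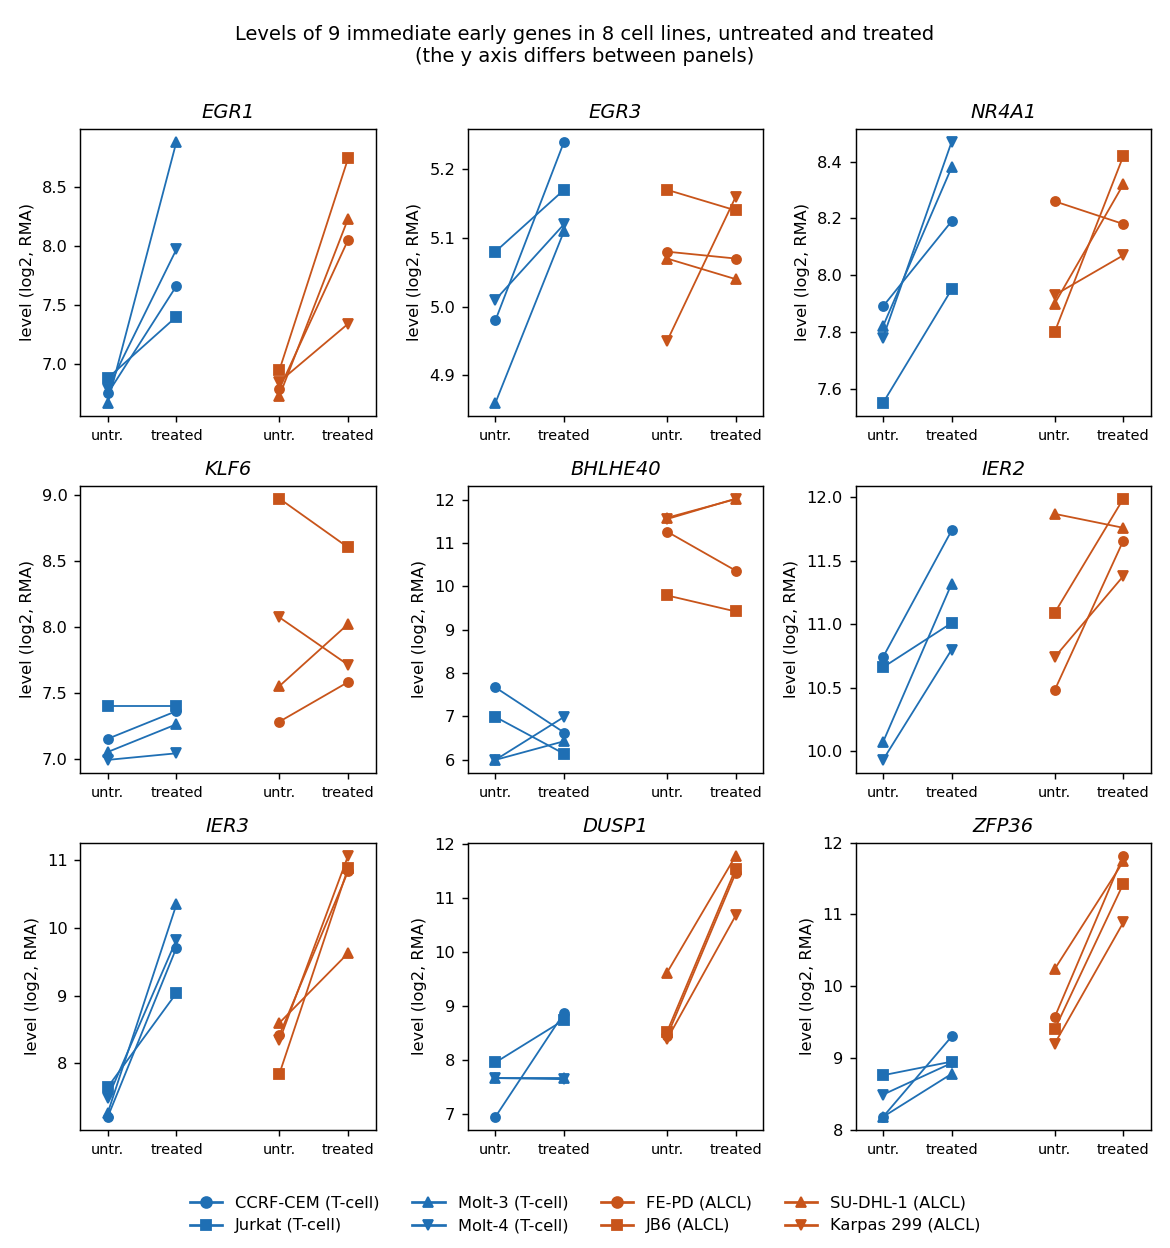
Log2 RMA levels of the 9 measured genes in each line, untreated and treated (lines join the arrays of 1 cell line; blue, T-cell; orange, ALCL; the y axis differs between panels). IER3, EGR1 (on 201693_s_at) and ZFP36 go up in every line, and DUSP1 goes up in all 4 ALCL lines. BHLHE40 separates the cell types, with ALCL at 9.42 to 12.02 and T-cell lines at 6.00 to 7.67.

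Probe set 201693_s_at of EGR1 had nearly the same untreated level in all 8 lines. That level lay near the untreated array medians (6.78 to 6.91), and whether it exceeded background was not tested. The probe set read 6.75 in CCRF-CEM, 6.88 in Jurkat, 6.67 in Molt-3 and 6.79 in Molt-4. In ALCL lines it read 6.79 in FE-PD, 6.95 in JB6, 6.73 in SU-DHL-1 and 6.85 in Karpas 299. After treatment it read 7.66, 7.40, 8.88 and 7.97 in the T-cell lines and 8.05, 8.74, 8.23 and 7.34 in the ALCL lines, in the same order. Treated groups lay above untreated ones without overlap in both cell types, as for 25.0% of all genes in T-cell and 7.69% in ALCL lines. The change was 1.21 ± 0.27 (SE; 2.31-fold, adjusted p = 0.00723) in T-cell lines and 1.26 ± 0.27 (2.39-fold, adjusted p = 0.00931) in ALCL lines. Centring the arrays on the hybridisation spikes took these to 0.52 (adjusted p = 0.412) and 0.65 (adjusted p = 0.336). The changes differed by 0.05 ± 0.38 on this probe set (95% interval -0.80 to 0.90, adjusted p = 0.972). On it, the smallest ALCL rise was in Karpas 299 and the smallest T-cell rises were in Jurkat and CCRF-CEM, the 3 lines without the 28S rise. The change was 0.71 (adjusted p = 0.073) in CCRF-CEM and Jurkat and 1.70 (adjusted p = 0.00563) in Molt-3 and Molt-4. Among ALCL lines it was 0.49 in Karpas 299, a single line with no test, and 1.52 (adjusted p = 0.00382) in the other 3, and without JB6 it was 1.08 (adjusted p = 0.0543).

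The second EGR1 probe set, 201694_s_at, read 2.29 ± 0.39 higher on treated ALCL arrays (4.9-fold, adjusted p = 0.00405). In T-cell lines it did not pass the test (0.95, adjusted p = 0.0783). The difference between the effects was 1.34 ± 0.55 on this probe set (95% interval 0.10 to 2.58, adjusted p = 0.366), larger than on the first. Its untreated level was 7.63 in Jurkat and 5.73 to 6.24 in the other 7 lines. In Jurkat it went from 7.63 to 7.21, where the first probe set went from 6.88 to 7.40. Among T-cell lines its largest change was in CCRF-CEM (2.48), beside 0.95 in Molt-3 and 0.80 in Molt-4, so it did not order these lines by the 28S rise. Among ALCL lines its smallest change was again in Karpas 299 (1.63), beside 2.02 in FE-PD, 2.32 in SU-DHL-1 and 3.2 in JB6. Over 16 arrays the levels of both correlated at r = 0.74, but their changes over 8 lines at only 0.34.

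NR4A1, read by 210226_at, ranged from 7.55 to 7.89 in untreated and from 7.95 to 8.47 in treated T-cell lines, with no overlap (as for 25.0% of all genes). The rise was 0.49 ± 0.14 (1.4-fold, adjusted p = 0.0207), and it did not pass without Molt-3 (adjusted p = 0.0863) or without Molt-4 (0.0961). The call also ended within the T-cell lines with the 28S rise (0.63, adjusted p = 0.0652) and within those without it (0.35, adjusted p = 0.208), and spike centring turned the direction (-0.20). In ALCL lines the change of 0.27 ± 0.14 did not pass (adjusted p = 0.185), and FE-PD went from 8.26 to 8.18. Its probe set 202340_x_at was called in both cell types, at 0.79 ± 0.19 (adjusted p = 0.0109) in T-cell and 0.85 ± 0.19 (adjusted p = 0.0127) in ALCL lines. The third, 211143_x_at, changed by 0.08 in T-cell lines (adjusted p = 0.635). A call for NR4A1 therefore differs with the probe set read.

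The other 3 transcription factors did not pass the test in either cell type. EGR3 stayed between 4.86 and 5.24 on all 16 arrays, below the array medians of 6.78 to 6.96. Its changes were 0.18 ± 0.11 in T-cell lines (adjusted p = 0.207) and 0.03 ± 0.11 in ALCL lines (adjusted p = 0.832). KLF6 changed by 0.12 ± 0.16 (adjusted p = 0.547) and 0.01 ± 0.16 (adjusted p = 0.972). BHLHE40 changed by -0.12 ± 0.34 (adjusted p = 0.787) and -0.09 ± 0.34 (adjusted p = 0.86), which are means over lines that moved in opposite directions. On 201170_s_at it was lower after treatment in FE-PD, JB6, CCRF-CEM and Jurkat and higher in SU-DHL-1, Karpas 299, Molt-3 and Molt-4. In CCRF-CEM and Jurkat, the T-cell lines without the 28S rise, it was 0.94 lower (log2 change -0.94, adjusted p = 0.0339), while in Molt-3 and Molt-4 the change was 0.71 (adjusted p = 0.119). Probe set 201169_s_at showed no such fall, with changes of 0.05 in CCRF-CEM and -0.03 in Jurkat. On it SU-DHL-1 changed by -1.46, FE-PD by -2.36 and JB6 by -0.47, but Karpas 299 by 1.11. The ALCL mean of -0.79 ± 0.43 did not pass (adjusted p = 0.219). The changes on the 2 probe sets correlated at r = 0.42 over the 8 lines.

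IER3 rose most of the 9 genes in T-cell lines. Its level went from 7.21 to 9.71 in CCRF-CEM, 7.65 to 9.04 in Jurkat, 7.27 to 10.35 in Molt-3 and 7.49 to 9.83 in Molt-4. In ALCL lines it went from 8.42 to 10.84 in FE-PD, 7.85 to 10.89 in JB6, 8.60 to 9.63 in SU-DHL-1 and 8.34 to 11.07 in Karpas 299. Every treated array lay above every untreated array of either cell type. The changes were 2.33 ± 0.33 (5.01-fold, adjusted p = 0.000691) and 2.31 ± 0.33 (4.95-fold, adjusted p = 0.00123). They differed by -0.02 ± 0.46 (95% interval -1.04 to 1.00, adjusted p = 0.992). IER3 rose both in CCRF-CEM and Jurkat (1.94, adjusted p = 0.0289) and in Molt-3 and Molt-4 (2.71, adjusted p = 0.00552), and it was 2.73 higher in Karpas 299, a single line with no test.

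IER2 rose in the T-cell lines, from 10.74 to 11.74 in CCRF-CEM, 10.66 to 11.01 in Jurkat, 10.07 to 11.32 in Molt-3 and 9.93 to 10.80 in Molt-4. That is 0.87 ± 0.21 (1.82-fold, adjusted p = 0.0104), with no overlap between groups (as for 25.0% of all genes). Without Molt-3 it was 0.74 (adjusted p = 0.0589). It was 0.67 in CCRF-CEM and Jurkat (adjusted p = 0.117), and spike centring took it to 0.18 (adjusted p = 0.769). The ALCL change was 0.65 ± 0.21 (adjusted p = 0.0502). IER2 read 10.48 and 11.66 in FE-PD, 11.09 and 11.99 in JB6 and 10.74 and 11.38 in Karpas 299, but 11.87 and 11.76 in SU-DHL-1, whose untreated level was the highest of the untreated arrays. Without SU-DHL-1 the change was 0.91 (adjusted p = 0.0169).

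DUSP1 and ZFP36 had larger changes in ALCL than in T-cell lines, and the test of that difference, given below, was passed by ZFP36. DUSP1 went from 8.44 to 11.47 in FE-PD, 8.52 to 11.55 in JB6, 9.62 to 11.79 in SU-DHL-1 and 8.38 to 10.68 in Karpas 299. This rise was 2.63 ± 0.30 (6.2-fold, adjusted p = 0.00046), and no ALCL arrays overlapped between conditions, as for 7.69% of all genes. The 4 T-cell lines were split. DUSP1 went from 6.94 to 8.87 in CCRF-CEM and from 7.95 to 8.74 in Jurkat, but read 7.67 on both arrays of Molt-3, and 7.66 and 7.64 in Molt-4. The mean T-cell change of 0.67 ± 0.30 did not pass (adjusted p = 0.0912). It was 1.35 in CCRF-CEM and Jurkat (adjusted p = 0.059) and -0.01 in Molt-3 and Molt-4 (adjusted p = 0.979). Probe set 201044_x_at did not show this split, with changes of 0.17 in CCRF-CEM, 0.28 in Jurkat, 0.04 in Molt-3 and 0.33 in Molt-4. Its mean T-cell change of 0.20 ± 0.12 did not pass either (adjusted p = 0.196).

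ZFP36 went from 9.57 to 11.82 in FE-PD, 9.40 to 11.43 in JB6, 10.24 to 11.74 in SU-DHL-1 and 9.20 to 10.89 in Karpas 299. It went from 8.18 to 9.30 in CCRF-CEM, 8.76 to 8.95 in Jurkat, 8.18 to 8.78 in Molt-3 and 8.49 to 8.93 in Molt-4. All 8 lines moved up, and the smallest ALCL change exceeded the largest T-cell change. The rise was 1.87 ± 0.17 (3.64-fold, adjusted p = 0.000214) in ALCL and 0.59 ± 0.17 (1.5-fold, adjusted p = 0.0234) in T-cell lines. The T-cell call did not hold without CCRF-CEM (adjusted p = 0.091), Molt-3 (0.0817) or Molt-4 (0.06), and centring arrays on the hybridisation spikes turned its direction (-0.09).

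The difference between the treatment effects, ALCL minus T-cell lines, was called for 1 of 9 members in the higher and 0 in the lower direction (2 at an unadjusted p under 0.05), against 1.11% and 0.568% of all genes. The called member was ZFP36, with 1.28 ± 0.25 (2.42-fold, adjusted p = 0.0315). This call did not hold in 12 of 21 alternatives, where the difference itself stayed between 1.04 and 1.46 over all of them. Leaving out FE-PD (adjusted p = 0.0741), JB6 (0.0827), Karpas 299 (0.0571), Jurkat (0.0726), Molt-3 (0.112) or Molt-4 (0.104) each ended it. The DUSP1 difference was larger, 1.96 ± 0.42, but missed the threshold (adjusted p = 0.0524). It passed in 8 of 22 alternatives, among them without CCRF-CEM (2.38, adjusted p = 0.00736) and within the 5 lines with the 28S rise (2.75, adjusted p = 0.00907). In the 3 lines without the 28S rise, of which 1 is ALCL, it was 0.94. The second DUSP1 probe set, 201044_x_at, also rose in ALCL lines, by 0.84 ± 0.12 (adjusted p = 0.00188). Its difference between the effects, 0.63 ± 0.17, was not called (adjusted p = 0.132). The differences of EGR3 (-0.14 ± 0.15), NR4A1 (-0.21 ± 0.20), KLF6 (-0.11 ± 0.23), BHLHE40 (0.03 ± 0.48) and IER2 (-0.21 ± 0.30) did not pass, with adjusted p from 0.709 to 0.99. Their 95% intervals were widest for BHLHE40, -1.05 to 1.10.

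**Figure D2:**
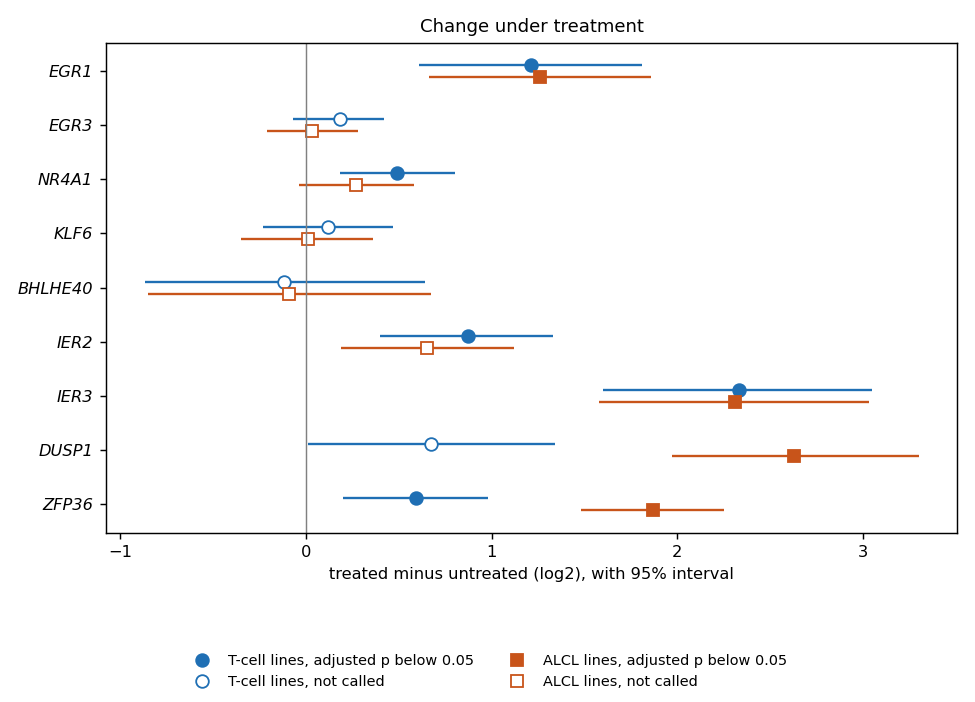
Change under treatment in log2 units for each gene, with 95% intervals from the fit of 16 arrays (circles, T-cell; squares, ALCL; filled, adjusted p below 0.05). The T-cell and ALCL estimates nearly coincide for EGR1 on the probe set plotted (1.21 and 1.26; 0.95 and 2.29 on the other) and for IER3 (2.33 and 2.31) and lie apart for DUSP1 (0.67 and 2.63) and ZFP36 (0.59 and 1.87); the T-cell values of NR4A1 and ZFP36 turn to -0.20 and -0.09 when arrays are centred on the spikes.

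**Figure D3:**
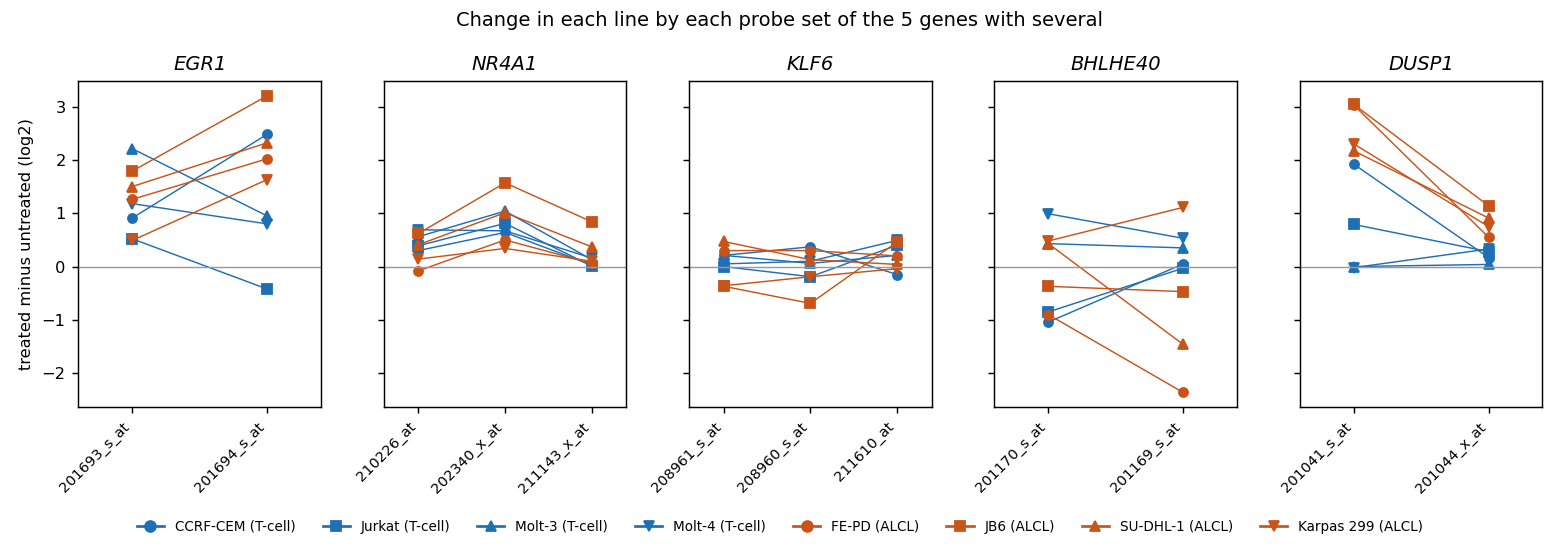
Change in each line (treated minus untreated, log2) by each probe set of the 5 genes that have several (blue, T-cell; orange, ALCL; lines join the values of 1 cell line). The DUSP1 probe sets keep ALCL above T-cell lines on a compressed scale, while the EGR1 probe sets order the lines differently and Jurkat changes sign.

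Before treatment, ALCL lines already held more BHLHE40, ZFP36 and IER3 than T-cell lines. Of 9 members 3 were called higher and 0 lower (5 at an unadjusted p under 0.05), against 3.18% and 5.58% of all genes, with a median difference of 0.82 for the members and 0.04 for all genes. BHLHE40 read 11.26 in FE-PD, 9.79 in JB6, 11.58 in SU-DHL-1 and 11.55 in Karpas 299. It read 7.67 in CCRF-CEM, 6.99 in Jurkat, 6.00 in Molt-3 and 6.00 in Molt-4. The lowest ALCL line stood above the highest T-cell line, and the difference was 4.38 ± 0.51 (20.8-fold, adjusted p = 0.00213). Its other probe set, 201169_s_at, gave 3.42 ± 0.52 (10.7-fold, adjusted p = 0.00771).

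ZFP36 was 1.20 ± 0.24 higher in untreated ALCL lines (2.3-fold, adjusted p = 0.0217) and IER3 0.90 ± 0.18 higher (1.86-fold, adjusted p = 0.0217), both without overlap between the 4 and 4 lines. The ZFP36 call ended without CCRF-CEM (adjusted p = 0.0506), Molt-3 (0.0721) or Molt-4 (0.0608). The IER3 call ended without CCRF-CEM (adjusted p = 0.051), FE-PD (0.0512), Karpas 299 (0.0539), Molt-3 (0.0727) or Molt-4 (0.0599). DUSP1 did not overlap either and differed by 1.18 ± 0.32 (adjusted p = 0.0609), and its second probe set by 0.48 ± 0.09 (adjusted p = 0.0182). With BHLHE40, 4 of 9 members were higher in untreated ALCL lines without overlap, against 8.61% of all genes. KLF6 (0.82 ± 0.34, adjusted p = 0.177) and IER2 (0.69 ± 0.32, adjusted p = 0.229) did not pass, and EGR1, EGR3 and NR4A1 differed by 0.06 to 0.22 with adjusted p from 0.344 to 0.718.

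After treatment, BHLHE40, DUSP1 and ZFP36 were higher in ALCL than in T-cell lines. Again 3 of 9 were called higher and 0 lower (5 at an unadjusted p under 0.05), against 1.35% and 1.53% of all genes, with medians of 0.71 and -0.03. DUSP1 was 3.14 ± 0.35 higher in treated ALCL than in treated T-cell lines (8.83-fold, adjusted p = 0.00221) and ZFP36 2.48 ± 0.23 higher (5.58-fold, adjusted p = 0.000878). Within the lines with the 28S rise these were 3.94 (adjusted p = 0.00263) and 2.81 (adjusted p = 0.00733), and in those without it, with 1 ALCL line, 1.88 and 1.77, where neither was called. BHLHE40 read 10.36 in FE-PD, 9.42 in JB6, 12.01 in SU-DHL-1 and 12.02 in Karpas 299, and 6.63 in CCRF-CEM, 6.14 in Jurkat, 6.43 in Molt-3 and 6.99 in Molt-4. Its difference of 4.41 ± 0.55 (21.2-fold, adjusted p = 0.00369) was not called by 201169_s_at (2.40, adjusted p = 0.0996), which read 7.21 in FE-PD and 6.75 in JB6. Nor was it called within the lines with the 28S rise (3.89, adjusted p = 0.0806). IER3 differed by 0.88 ± 0.36 and did not pass (adjusted p = 0.274), and SU-DHL-1 (9.63) lay within the range of the treated T-cell lines. KLF6 ranged from 7.58 to 8.60 in treated ALCL and from 7.04 to 7.40 in treated T-cell lines without overlap, and its 0.71 ± 0.23 did not pass (adjusted p = 0.151). In this comparison 4 of 9 members were higher in ALCL without overlap, against 4.26% of all genes. Probe set 208960_s_at of KLF6 did pass, at 0.64 ± 0.13 (adjusted p = 0.0416). Probe set 211610_at of KLF6 did not separate the types, treated (-0.08 ± 0.16, adjusted p = 0.883) or untreated (-0.01 ± 0.15, adjusted p = 0.98). Over the 16 arrays its levels correlated at r = -0.31 with those of 208960_s_at. EGR1, EGR3, IER2 and NR4A1 did not pass.

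**Figure D4:**
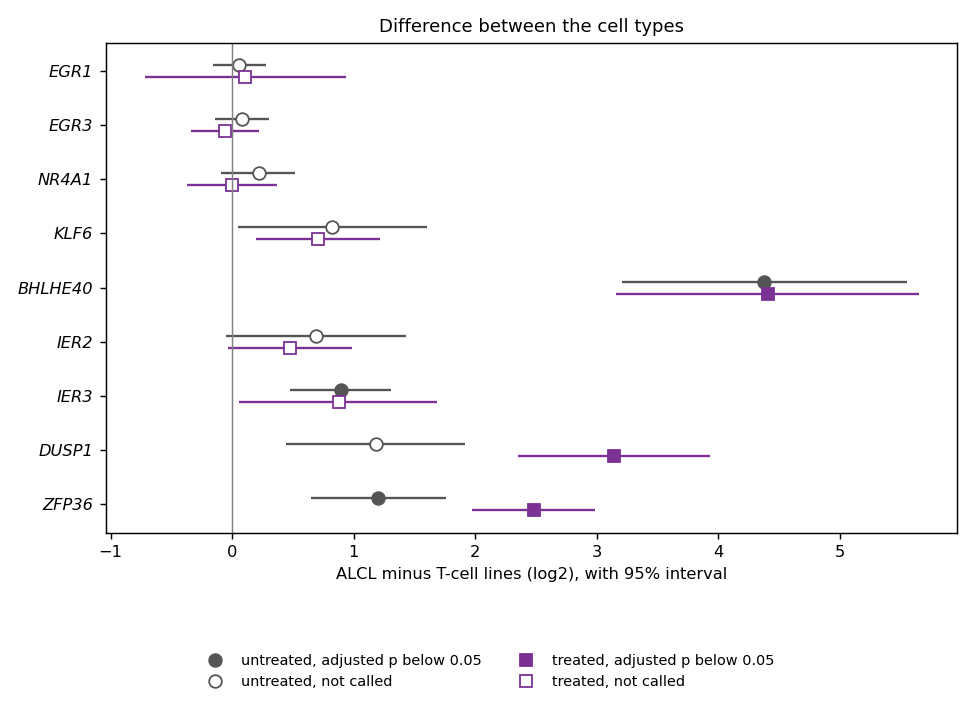
Difference between cell types in log2 units (ALCL minus T-cell lines), untreated and treated, with 95% intervals (filled, adjusted p below 0.05). BHLHE40 differs by 4.38 untreated and 4.41 treated, whereas the differences of DUSP1 (1.18 and 3.14) and ZFP36 (1.20 and 2.48) are larger between treated lines.

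Treated T-cell lines were also set against untreated ALCL lines, the comparison closest to the question in the series title. It shares arrays with the comparisons above, so its values are no separate evidence. Of 9 members 2 were called higher in treated T-cell lines and 1 lower (4 at an unadjusted p under 0.05), against 8.82% and 9.09% of all genes, with a median of 0.09 for members and for all genes. IER3 was 1.43 ± 0.28 higher (2.7-fold, adjusted p = 0.00947) and EGR1 1.14 ± 0.29 higher (2.21-fold, adjusted p = 0.0266) than in untreated ALCL lines, without overlap. Of all genes, 15.3% were higher here without overlap. Spike centring took IER3 to 0.41 (adjusted p = 0.506) and EGR1 to 0.12 (adjusted p = 0.843), where neither was called. Without JB6 and Molt-4 they were 1.25 (adjusted p = 0.0724) and 1.19 (adjusted p = 0.115), and in the lines without the 28S rise, with 1 ALCL line, 1.03 and 0.68, not called. The EGR1 call ended without FE-PD (adjusted p = 0.0521), JB6 (0.0567), SU-DHL-1 (0.0552), Karpas 299 (0.053) or Molt-4 (0.0631). BHLHE40 was lower by far (log2 difference -4.50 ± 0.39, 22.6-fold, adjusted p = 0.000239). ZFP36 (-0.61 ± 0.23, adjusted p = 0.0957), DUSP1 (-0.51 ± 0.38, adjusted p = 0.36), KLF6 (-0.70 ± 0.33, adjusted p = 0.161) and IER2 (0.17 ± 0.32, adjusted p = 0.718) did not pass, nor did NR4A1 (0.27 ± 0.16, adjusted p = 0.265) and EGR3 (0.09 ± 0.12, adjusted p = 0.591). Of the other probe sets, 208960_s_at of KLF6 was lower (log2 difference -0.75 ± 0.22, adjusted p = 0.0496). Probe sets 202340_x_at of NR4A1 (0.60 ± 0.15, adjusted p = 0.0313) and 201694_s_at of EGR1 (1.32 ± 0.29, adjusted p = 0.0175) were higher. On 211610_at KLF6 had the opposite sign and did not pass (0.25 ± 0.17, adjusted p = 0.316).

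The order of the group means differed between the genes. For ZFP36 it ran from untreated T-cell (8.18 to 8.76) through treated T-cell (8.78 to 9.30) and untreated ALCL (9.20 to 10.24) to treated ALCL lines (10.89 to 11.82), and the middle pair of these overlapped. For DUSP1 the order was the same, with overlap between the first 2 groups and between the middle 2, and treated ALCL (10.68 to 11.79) alone above. For IER3 it was untreated T-cell (7.21 to 7.65), untreated ALCL (7.85 to 8.60), treated T-cell (9.04 to 10.35) and treated ALCL (9.63 to 11.07), with overlap between the last pair. For EGR1 on 201693_s_at the treated groups of both types lay above the untreated groups of both types. On 201694_s_at untreated T-cell lines (5.73 to 7.63) overlapped treated T-cell (6.89 to 8.21) and treated ALCL lines (7.44 to 8.98). For BHLHE40 both ALCL groups lay above both T-cell groups.

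DUSP1 and ZFP36 had the most alike patterns among the members. Over the 16 arrays their levels correlated at r = 0.98, and at 0.80 within the 8 T-cell arrays and 0.99 within the 8 ALCL arrays. Over the 8 lines their changes correlated at 0.93. EGR1 went with IER3 (r = 0.82) and NR4A1 (0.80) over the 16 arrays, and its r with BHLHE40 was -0.02. The changes of EGR1 over the 8 lines correlated at only 0.36 with those of IER3 and 0.44 with those of NR4A1. These arrays share lines, treatment and the array differences described above, so the correlations are descriptions. Among all 11963 genes, the most like DUSP1 was ZFP36, followed by GADD45B and STC1 (both r = 0.93). For ZFP36 it was DUSP1, followed by HMOX1 and STC1 (both 0.93). For EGR1 the closest was CDON (0.93), for IER3 BDKRB1 (0.91), for IER2 TRPM4 (0.91), for NR4A1 PIEZO2 (0.96) and for BHLHE40 LYN (0.97). KLF6 was closest to HLA-DOA (0.88) and EGR3 to CYTH3 (0.82).

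**Figure D5:**
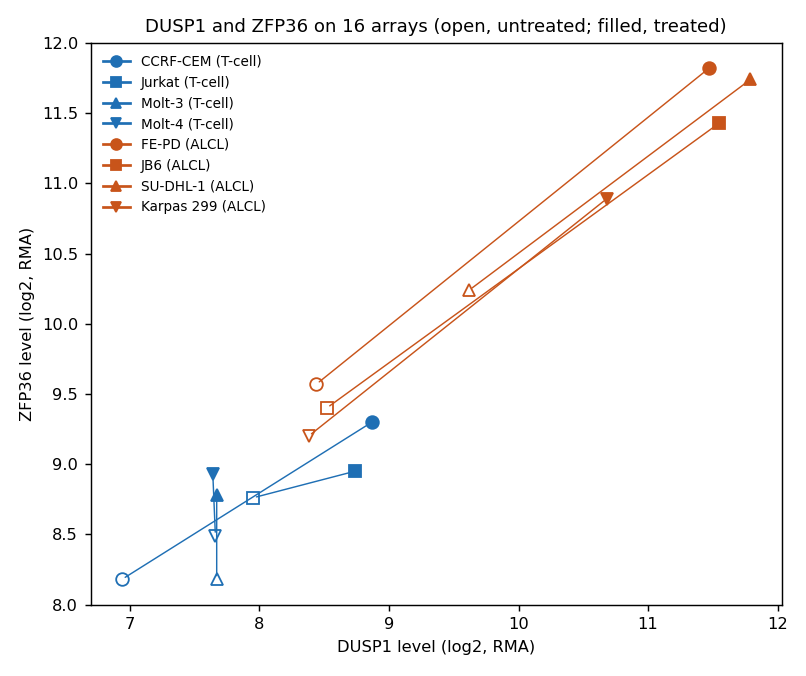
ZFP36 against DUSP1 (both log2 RMA levels) on the 16 arrays, with open symbols for untreated and filled symbols for treated arrays, joined by line. The 4 ALCL lines run along 1 diagonal to DUSP1 levels of 10.68 to 11.79, while Molt-3 and Molt-4 move up in ZFP36 at a DUSP1 level of 7.64 to 7.67.

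The gene lists that follow are to be read beside the shares of all genes called, which were 21.7% higher and 20.2% lower in T-cell lines and 8.04% and 13.4% in ALCL lines. For the difference between the effects they were 1.11% and 0.568%, between untreated types 3.18% and 5.58%, and between treated types 1.35% and 1.53%. For treated T-cell against untreated ALCL lines they were 8.82% and 9.09%. Of 17 relatives of the members (other EGR, NR4A, ZFP36, DUSP, KLF and IER genes and the EGR corepressors NAB1 and NAB2), 8 rose and 2 fell in T-cell lines, with a median of 0.40, and 4 rose and 0 fell in ALCL lines, with a median of 0.38. NR4A3, a paralogue of NR4A1, rose in both, by 0.91 ± 0.14 (adjusted p = 0.000943) and 0.66 ± 0.14 (adjusted p = 0.00748), as did DUSP10, a phosphatase of p38 and JNK, by 0.99 ± 0.18 (adjusted p = 0.00256) and 1.20 ± 0.18 (adjusted p = 0.00162). ZFP36L2, a paralogue of ZFP36, went the other way in T-cell lines, where its log2 change was -1.95 ± 0.27 (adjusted p = 0.000669). Its treatment effect differed between the types by 1.83 ± 0.38 (adjusted p = 0.0455). It was lower in ALCL before treatment (log2 difference -3.42 ± 0.49, adjusted p = 0.00569) and after it (-1.59 ± 0.32, adjusted p = 0.0342), the reverse of ZFP36. DUSP2, a nuclear ERK phosphatase of lymphocytes, fell in T-cell lines (log2 change -0.88 ± 0.17, adjusted p = 0.00384), and its effect differed by 1.36 ± 0.24 (adjusted p = 0.0228). In all, 2 relatives differed in treatment effect, both higher in ALCL. Between untreated types 1 relative was higher in ALCL (KLF10, 1.87 ± 0.23, adjusted p = 0.00288) and 2 lower, between treated types 0 and 1, and in treated T-cell against untreated ALCL lines 3 were higher and 0 lower.

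Of 22 genes on the route from RAS to ERK, SRF and CREB, 17 were measured. In T-cell lines 3 rose and 4 fell (median -0.12), and in ALCL lines 0 rose and 1 fell (median 0.02). The T-cell counts are near the 21.7% and 20.2% of all genes, so they show nothing about this list. RASGRP1, the RAS activator downstream of the T-cell receptor, fell in T-cell lines (log2 change -2.10 ± 0.18, adjusted p = 8.1e-05), as did SRF (-0.81 ± 0.11, adjusted p = 0.000762) and CREB1 (-0.81 ± 0.22, adjusted p = 0.0161), while MAP2K1 rose by 1.06 ± 0.13 (adjusted p = 0.000352). RASGRP1 was the 1 gene of this list whose effect differed between types (2.14 ± 0.26, adjusted p = 0.00341). Untreated ALCL lines were higher for 2 and lower for 1 of the 17, treated ones for 0 and 0 (3 at an unadjusted p under 0.05), and treated T-cell lines stood lower than untreated ALCL lines for 4 and higher for 0.

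Of 10 feedback inhibitors of ERK, 8 were measured. DUSP5, a nuclear ERK phosphatase, rose by 0.88 ± 0.22 in T-cell lines (adjusted p = 0.011) and by 2.33 ± 0.22 in ALCL lines (adjusted p = 0.000211), and the difference of 1.45 ± 0.31 was called (adjusted p = 0.0475). In T-cell lines 2 of the 8 rose and 2 fell, among them SPRED2 (log2 change -1.32 ± 0.22, adjusted p = 0.00193), near the share of all genes, and in ALCL lines 1 rose and 0 fell. DUSP5 was also 2.05 ± 0.44 higher in treated ALCL than in treated T-cell lines (adjusted p = 0.0415). In each of the other comparisons of groups 1 of the 8 was called higher, and 1 lower in treated T-cell against untreated ALCL lines.

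Of 22 measured genes of a list of 24 other early response genes, 7 rose and 2 fell in T-cell lines (median 0.29) and 6 rose and 1 fell in ALCL lines (median 0.38). SGK1, a serum-induced kinase, rose by 2.55 ± 0.36 (adjusted p = 0.000686) and 2.21 ± 0.36 (adjusted p = 0.00234). GADD45B, a stress sensor, rose by 0.87 ± 0.25 (adjusted p = 0.0208) and 2.24 ± 0.25 (adjusted p = 0.000441). MYC fell in both, with log2 changes of -3.92 ± 0.41 (adjusted p = 0.000187) and -1.69 ± 0.41 (adjusted p = 0.0163). None of the 22 was called for the difference between the treatment effects with limma (5 at an unadjusted p under 0.05). ALCL lines were higher for 4 and lower for 1 before treatment and higher for 3 and lower for 0 after it, and treated T-cell lines exceeded untreated ALCL lines for 2 and were below them for 5. Of the 10 AP-1 subunits, 5 rose and 0 fell in T-cell lines and 3 rose and 1 fell in ALCL lines, among them FOS, by 1.48 ± 0.35 (adjusted p = 0.00919) and 3.27 ± 0.35 (adjusted p = 0.000347). AP-1 subunits were higher in ALCL for 5 of 10 before treatment (median 1.16, with JUNB at 3.49 ± 0.17) and 2 of 10 after it.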

How the data were processed

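The deposited values are log2 expression summaries that the authors made with RMA; the submitters' processing notes name R 2.10.1. No detection calls were used, so no gene is called absent. Probe sets were named from the platform annotation: of 22283, 19065 had 1 symbol, 1043 several and 2107 none, and 68 were controls. Each of the 11963 genes was read by its probe set with the highest mean (4310 had several). No probe set was named for EGR2.

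Groups came from the labels. Treatment effects and their difference came from 1 limma 3.58.1 fit (R 4.3.3) of 16 arrays, blocked by cell line, because the same line was arrayed in both conditions. Deviations of paired arrays from their group means correlated at 0.33 to 0.643 in the 8 lines; for Molt-4 the correlation with another line of its type was higher (0.399 against 0.33). Comparisons between cell types used 8 arrays each. Errors after ± are standard errors, tests are two-sided, and p-values were adjusted (Benjamini-Hochberg) over all genes or, for further probe sets, over all probe sets. The number of arrays limits the precision.

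The members, gene lists and tests were chosen with earlier results of these data known. Genes were named by rule: all members, with up to 4 genes of smallest adjusted p per list and up to 3 genes most alike per member. The fit was tested on simulated data (5 runs, 11963 genes). It found 70.3% of genes changed 2-fold by treatment in T-cell lines, 36.3% for the difference between effects and 72.6% between untreated types. Of those changed 4-fold it found 97.0%, 88.2% and 91.1%. False calls averaged 4.8 to 12.2 per run. Between types, both were simulated with the spread of the untreated T-cell lines. Those shares therefore do not cover genes that vary more in ALCL lines, such as KLF6 (untreated SD 0.18 in T-cell and 0.74 in ALCL lines). Alternatives were other blocks, probe set rules, filters, scalings, a variance trend, lines with or without the 28S rise, and leaving out lines.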

Additional observations from a re-analysis of the deposited data

Results flagged for a closer look

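Of 54 groups of 4 values examined (levels in each group and changes in each cell type), 3 held 1 value far from the other 3, and chance flags about 1 in 20 such groups. DUSP1 in untreated SU-DHL-1 stood at 9.62, above the other untreated ALCL lines at 8.38 to 8.52. IER3 in treated SU-DHL-1 stood at 9.63, below the other treated ALCL lines at 10.84 to 11.07. EGR3 in Karpas 299 was 0.22 higher after treatment, while the other 3 ALCL lines changed by -0.04 to -0.01. The treatment effect on ZFP36 differed between the cell types by 1.28 in the test of the difference itself, with the larger effect in ALCL lines.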

How the results depend on the processing

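Each result was recomputed under up to 24 alternatives, and of 1161 values 1058 kept their direction and side of the threshold or were not called either way, 70 lost the call, 31 gained one and 2 turned. Both turned when arrays were centred on the hybridisation spikes, where in T-cell lines NR4A1 changed by -0.20 and ZFP36 by -0.09. That centring moved the median of all genes to -0.54 in T-cell and -0.52 in ALCL lines and left 1 member called higher in T-cell lines, 0 for the difference between the effects, and 0 higher and 4 lower in treated T-cell against untreated ALCL lines. The number of members called higher for the difference was 2 with the 75th percentile, a random block, the mean of probe sets, a variance trend or the lowest 40% of genes left out. It was 0 with no replicate block (lines unpaired), 0 in lines without the 28S rise and 0 without JB6 and Molt-4, a choice made after seeing the data because their treated arrays had the smallest SD. Without those 2 lines 3 members rose in T-cell lines and 0 were higher in treated T-cell than in untreated ALCL lines. In the lines without the 28S rise alone, T-cell treatment called 1 higher and 1 lower, ALCL treatment 0, the untreated types 0, the treated types 1 and treated T-cell against untreated ALCL lines 0 higher. In those with the rise, T-cell treatment called 3 and the untreated types 1. These subsets hold fewer lines, and the one without the rise holds 1 ALCL line, assumed to vary like the T-cell lines. Leaving out 1 line at a time gave 2 (without Molt-3) to 5 members higher in T-cell lines, 0 to 2 for the difference, 1 to 3 between untreated types and 1 to 2 in treated T-cell against untreated ALCL lines. Over the alternatives, IER3 kept its T-cell call in 22 of 22 (highest adjusted p 0.0289) and BHLHE40 its call between treated T-cell and untreated ALCL lines in 21 of 21 (0.0326). The share of calls that were higher was 51.8% for T-cell treatment, but 36.0% with median, 74.5% with 75th percentile and 2.1% with spike centring. For ALCL treatment it was 37.5%, 58.0% (75th percentile) and 3.6% (spikes), and for the difference 66.2%, 54.5% and 76.6%. Between untreated types it was 36.3%, 49.9% and 75%, between treated types 47.0% and 92.8% (spikes), and for treated T-cell against untreated ALCL lines 49.2%, 62.5% and 1.7%. For the other settings the causes were not tested.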

Other observations

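Of all genes, 21.7% were called higher and 20.2% lower in T-cell lines, and 8.04% and 13.4% in ALCL lines. The shares for the other comparisons are given with the gene lists above. The lists below are short, and their counts were not tested against these shares. Of transcripts with AU-rich elements that are known targets of ZFP36, 10 of 12 listed were measured, and 2 rose and 1 fell in T-cell lines and 2 rose and 1 fell in ALCL lines, with medians of 0.29 and 0.16. TNF rose by 0.61 ± 0.16 (adjusted p = 0.0143, limma) in T-cell and 0.59 ± 0.16 (adjusted p = 0.0259) in ALCL lines. PIM1, a survival kinase, rose by 1.05 ± 0.25 in T-cell lines (adjusted p = 0.0096), and CXCL8 by 1.25 ± 0.28 in ALCL lines (adjusted p = 0.0114). MYC, described above, is also on this list. For the difference between the treatment effects 0 of 10 were called by limma (2 at an unadjusted p under 0.05), between untreated types 1 was higher in ALCL, between treated types 0 (3 unadjusted), and treated T-cell lines were lower than untreated ALCL lines for 1.

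Of 9 genes known as targets of EGR2 and EGR3 in T cells, 0 rose and 2 fell in T-cell lines, where 20.2% of all genes fell, and 0 were called in ALCL lines (1 at an unadjusted p under 0.05). The 2 were the diacylglycerol kinases DGKA (log2 change -1.10 ± 0.14, adjusted p = 0.000416, limma) and DGKZ (-0.83 ± 0.15, adjusted p = 0.00301), which damp RAS signalling from the T-cell receptor. The effect on DGKA differed between the types by 1.03 ± 0.19 (adjusted p = 0.0287). None of the 9 was called in the 3 comparisons between groups of different lines (2 at an unadjusted p under 0.05 between untreated types, 2 between treated types and 0 in the other). The T-cell markers fell in the same lines, as given above, and their part in these values was not tested.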
